A study of Rattus norvegicus with 6 samples.

Results

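Matrix metalloproteinases (MMPs), the ADAM and ADAMTS proteases and their inhibitors were examined in a cancer cell strain and a fibroblastic strain derived from rat bile duct tumours. Genes belonged to the set when the single symbol annotated for a probe set began with Mmp, Adam, Adamts, Adamtsl or Timp followed by a number, or was Reck or Bsg. This gave 57 genes of the 14217 measured, read by 81 of the 31042 probe sets that are not controls. The set held 17 MMP, 18 ADAM, 12 ADAMTS, 4 ADAMTSL and 4 TIMP genes beside Reck and Bsg. Several genes of these families, among them Mmp1, Mmp20, Adam12 and Adamts2, were not analysed here because no probe set carried their symbol alone.

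For each strain 3 arrays were hybridised. BDEsp-TDECC, here TDECC, is a clonal cholangiocarcinoma strain. Its counterpart BDEsp-TDESM, called TDESM below, is a clonal strain of cancer-associated fibroblastic cells that the labels describe by overexpressed Acta2, the smooth muscle actin of myofibroblasts. Both strains were isolated from tumours that grew after BDEsp cells, cholangiocytes (bile duct lining cells) that had transformed spontaneously, were put into the bile duct of young adult male Fischer 344 rats. All 6 samples carry the same culture text, a 3-dimensional organotypic co-culture in dilute rat type I collagen gel, and the same treatment text, the TGF-beta inhibitors SB 431542 and LY2157299. The labels do not say which cultures received an inhibitor, so no treatment was compared. Each group is 1 clone. The labels do not tell whether a strain's 3 samples are separate cultures, and the p-values therefore reflect spread among samples that may be technical.

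MMPs are zinc-dependent enzymes that cut collagens, laminins, proteoglycans and other proteins around cells, and most are made as inactive precursors. ADAMs are membrane-anchored relatives, several of which release growth factors and receptors from the cell surface, while ADAMTS enzymes are secreted and cut proteoglycans such as versican and aggrecan or process procollagens. TIMPs are secreted inhibitors of these enzymes, Reck is an inhibitor anchored in the membrane, and Bsg (basigin, also called EMMPRIN) is a surface glycoprotein known to induce MMPs in neighbouring fibroblasts. In the stroma of bile duct cancer, fibroblasts and tumour cells are both known sources of such enzymes.

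The arrays matched their labels. All 6 epithelial markers, among them Krt19 and Epcam, were lower in TDESM, and all 7 fibroblast markers, among them Col1a2 and Acta2, were higher there. The mean log2 level of the epithelial markers was 13.54 to 13.78 on TDECC arrays and 4.79 to 4.93 on TDESM arrays, and that of the fibroblast markers was 4.69 to 4.96 and 12.64 to 12.74. Of 6 leukocyte markers none passed the threshold (limma, 0 called, 1 at an unadjusted p under 0.05), with mean levels of 4.97 to 5.66 in TDECC and 5.03 to 5.25 in TDESM; Ptprc (CD45) stood at 3.68 and 3.80, whereas Cd14 was bright in both strains with overlap (TDECC 8.65 to 11.64, TDESM 8.63 to 8.90). Of 4 endothelial markers, averaging 4.06 to 4.36 in TDECC and 4.07 to 4.11 in TDESM, 1 was lower in TDESM (Pecam1, -0.37, limma adjusted p = 0.0439). Of 4 hepatocyte markers, averaging 4.76 to 5.21 and 4.63 to 4.95, 1 was lower (Serpina1, -1.53, limma adjusted p = 0.0429). Across genes, TDESM arrays correlated with each other at 0.995 to 0.998, TDECC arrays at 0.968 to 0.975, and arrays of different strains at 0.787 to 0.823.

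The promoter stretches of the MMP genes that lie side by side on chromosome 8 are shown first, because these 6 genes lie together, 5 of them hold the motif marked here, and none of the 6 passed the test between strains. In the RefSeq gene order of assembly GRCr8 they are Mmp13, Mmp12, Mmp3, Mmp10, Mmp8 and Mmp7, with only other Mmp genes between them. Each line gives the 120 bases before the annotated start, from RefSeq (GRCr8), with letters matching the AP-1 motif TGANTCA in capitals. AP-1 is the Fos and Jun transcription factor pair.
Mmp13, chr8:12782709-12782828, plus strand: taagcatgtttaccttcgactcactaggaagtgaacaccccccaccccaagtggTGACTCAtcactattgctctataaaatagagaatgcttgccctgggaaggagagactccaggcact
Mmp12, chr8:12866532-12866651, plus strand: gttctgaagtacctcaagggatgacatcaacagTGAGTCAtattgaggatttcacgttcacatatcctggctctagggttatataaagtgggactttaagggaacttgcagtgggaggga
Mmp3, chr8:12925161-12925280, plus strand: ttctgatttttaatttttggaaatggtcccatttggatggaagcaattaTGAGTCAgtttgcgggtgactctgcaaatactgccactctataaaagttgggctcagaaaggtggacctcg
Mmp10, chr8:12974587-12974706, plus strand: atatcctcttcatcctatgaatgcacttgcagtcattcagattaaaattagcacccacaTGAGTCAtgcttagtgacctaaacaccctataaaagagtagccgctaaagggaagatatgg
Mmp8, chr8:13008770-13008889, plus strand: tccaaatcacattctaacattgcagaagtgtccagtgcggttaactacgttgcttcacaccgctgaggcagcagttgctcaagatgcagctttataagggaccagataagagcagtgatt
Mmp7, chr8:13132923-13133042, plus strand: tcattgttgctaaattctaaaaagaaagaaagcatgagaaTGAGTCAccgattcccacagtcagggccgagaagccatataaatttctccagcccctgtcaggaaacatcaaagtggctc

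The motif TGANTCA, searched on both strands, stood in the 300-base promoter window of 5 of these 6 genes, starting 61 bases before the start in Mmp10, 66 in Mmp13, 71 in Mmp3, 80 in Mmp7 and 87 in Mmp12. Mmp8 had no match in its window. All 6 windows also held TATAAA and 0 held the GC box GGGCGG, and their GC content was 38.3% to 49.7%. RefSeq windows were found for 36 of the 57 genes, 39 windows in all since Adamtsl1 has 4. Among the other 33 windows 1 held TGANTCA (Adam19), 5 held TATAAA and 24 held GGGCGG. Over all 39 windows 6 held TGANTCA. The run was shown partly for this motif, so its share is not a test against the other windows. Among all 33469 promoter windows of the same length the shares were 7.33% for TGANTCA, 14.2% for TATAAA and 33.1% for GGGCGG, and among the 13193 windows of genes on the array they were 5.59%, 8.47% and 55.8%. Hits of different motifs did not overlap in the 39 windows (0 overlaps), and TATAAA and GGGCGG were added to the search after values had been seen.

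GC boxes are shown in the 250 bases before the start of Adamts1 and Reck, which were among the genes highest over TDECC in TDESM, and of Adam8, which had the largest difference the other way. The GC box was added to the search after values had been seen. Adamts12, also higher in TDESM (4.23), held 0 GC boxes in its window and is not shown. Letters matching GGGCGG on either strand are in capitals.
Adamts1, chr11:38427385-38427634, minus strand: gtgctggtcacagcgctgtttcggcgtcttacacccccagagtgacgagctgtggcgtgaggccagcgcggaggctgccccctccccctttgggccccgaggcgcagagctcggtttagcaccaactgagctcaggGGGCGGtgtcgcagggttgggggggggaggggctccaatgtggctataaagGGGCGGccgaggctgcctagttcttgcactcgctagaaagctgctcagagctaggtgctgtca
Reck, chr5:62898467-62898716, plus strand: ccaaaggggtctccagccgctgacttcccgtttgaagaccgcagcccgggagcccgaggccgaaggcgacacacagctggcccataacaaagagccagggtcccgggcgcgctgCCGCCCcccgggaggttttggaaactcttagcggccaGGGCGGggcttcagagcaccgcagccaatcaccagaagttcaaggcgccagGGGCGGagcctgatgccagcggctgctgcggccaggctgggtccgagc
Adam8, chr1:204218323-204218572, minus strand: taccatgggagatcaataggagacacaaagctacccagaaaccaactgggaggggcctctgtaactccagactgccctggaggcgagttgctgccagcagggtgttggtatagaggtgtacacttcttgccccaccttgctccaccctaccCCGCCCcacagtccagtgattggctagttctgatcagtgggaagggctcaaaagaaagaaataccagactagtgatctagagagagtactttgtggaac
Adamts1 held 2 such boxes in this stretch, Reck 3 and Adam8 1. Of the windows of genes higher in TDESM 11 of 15 held a GC box, of those of genes lower in TDESM 5 of 6, and of those of genes not called 8 of 18. The share among windows of genes on the array was 55.8%. The 18 include the 6 windows of the chromosome 8 run, with 0 boxes, and the 4 windows of Adamtsl1. These counts are thus not of independent genes, and no difference between them was tested. A match describes letters in the window and does not show that a factor binds there.

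The comparison asked which proteases and inhibitors differ between the fibroblastic strain and the cancer strain. Of the 57 genes 31 passed (limma, adjusted p of 0.05 over all genes), against 42.7% of all genes, so 54.4% of the set was called. Of these 22 were higher in TDESM, 38.6% of the set against 22.1% of all genes, and 9 were lower, 15.8% against 20.6%. At least 4-fold differences were found for 11 genes higher in TDESM, 19.3% against 6.17% of all genes, and for 3 lower genes, 5.26% against 5.37%. The groups of arrays did not overlap for 40 genes, 70.2% against 53.6% of all genes, including each of the 31 called genes and 9 that were not called. The median log2 difference of the set was 0.22 and its median absolute difference 1.09, beside 0 and 0.43 over all genes. Counts by role, given below, rest on 1 to 8 genes each. They stand beside the same shares of all genes, 22.1% higher and 20.6% lower, and were not tested.

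The split depends on the scaling. The deposited values have near-equal array medians, 5.80 to 5.86. When each array was centred instead on the added poly-A control transcripts, the median of all genes moved to -1.27. The set then gave 11 higher genes (19.3%, against 6.37% of all genes) and 35 lower genes (61.4%, against 79.4% of all genes). The 11 were Mmp2, Mmp16, Mmp19, Adam19, Adamts1, Adamts9, Adamts12, Adamtsl4, Timp1, Timp3 and Reck, the same genes that differed at least 4-fold as deposited. Under that centring the differences of Mmp11 (-0.03), Mmp28 (-0.18), Adam23 (-0.01), Adamts6 (-0.75), Adamts7 (-0.39) and Timp2 (-0.23) turned their sign. The adjusted p of this fit did not follow each gene's own spread. Mmp13, with TDECC arrays from 4.42 to 9.42, gave a limma adjusted p of 9.24e-31, against 0.11 as deposited. The counts under this centring are therefore not weighed against the spread of single genes. Differences below use the deposited scale, on which the median gene differs by 0. An exact permutation test of a single gene cannot go below p = 0.1 (two-sided) with 3 against 3 arrays.

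**Figure D1:**
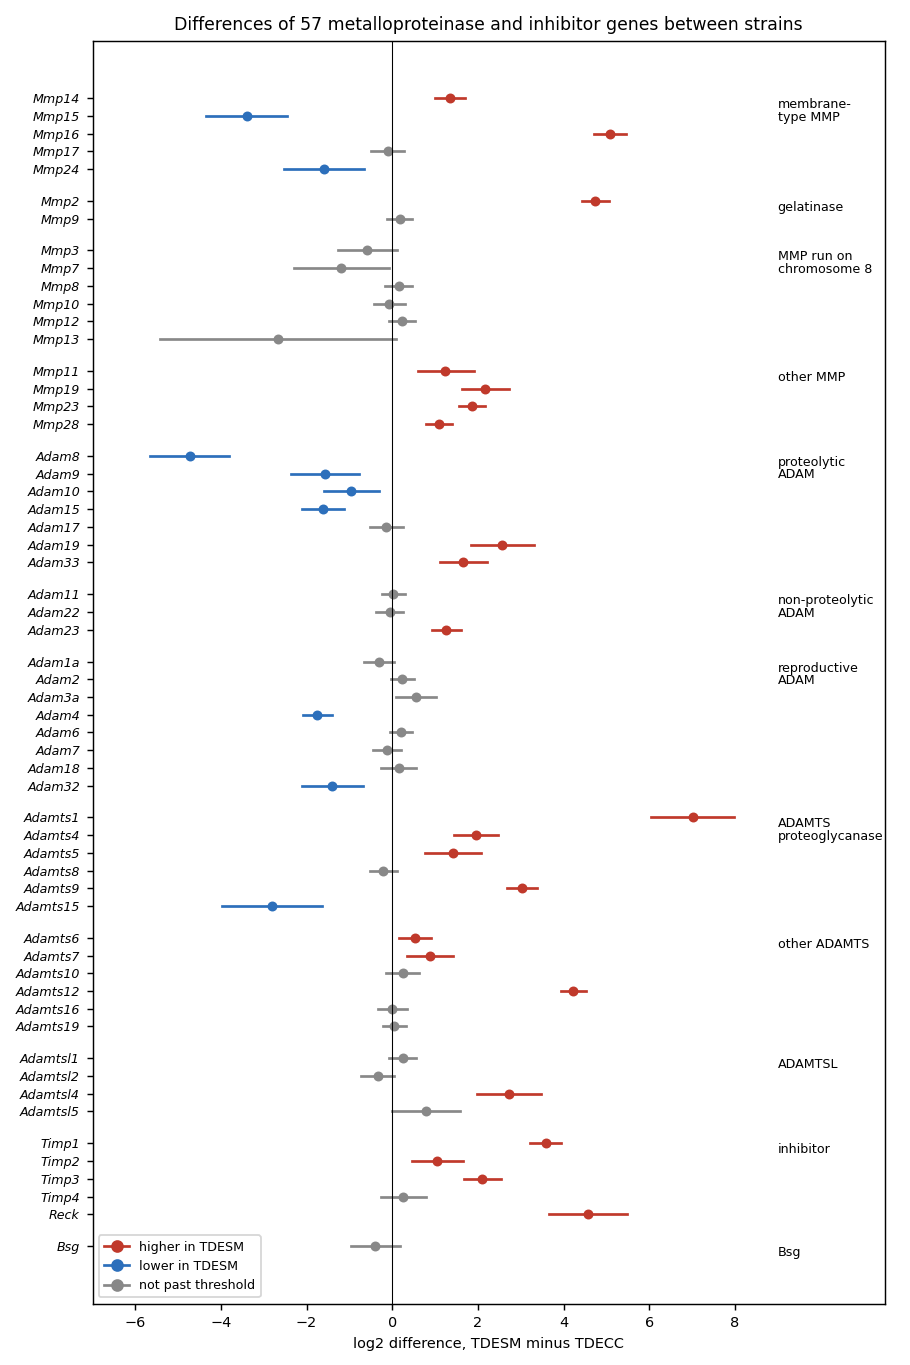
Log2 difference (TDESM minus TDECC, horizontal axis) of each of the 57 genes, grouped by role, with points for the limma estimate from 3 arrays per strain and bars for its 95% confidence interval. The 5 inhibitors lie right of 0, with the interval of Timp4 reaching below it, Adamts1 lies farthest right at 7.02 and Adam8 farthest left at -4.73.

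**Figure D2:**
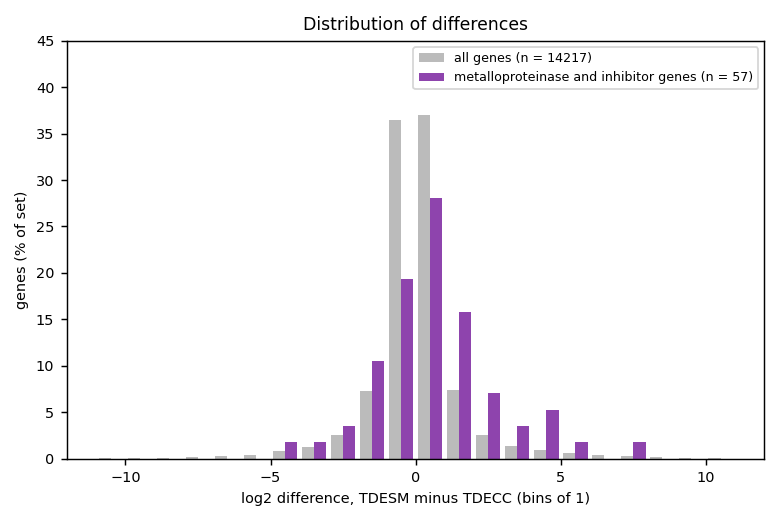
Share of genes (%, vertical axis) in bins of 1 log2 unit of the difference TDESM minus TDECC, for all 14217 genes and for the 57 genes of the set. Between -1 and 0 lie 36.5% of all genes and 19.3% of the set, and between 4 and 5 lie 0.914% and 5.26%.

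Among the membrane-type MMPs, which act at the cell surface, 2 of 5 genes were higher in TDESM and 2 were lower. Mmp14 (MT1-MMP, known to activate the Mmp2 precursor) had log2 levels of 10.75, 10.82 and 11.15 on TDECC arrays and 12.16, 12.34 and 12.26 on TDESM arrays. All TDESM arrays were above all TDECC arrays, yet the gene was well expressed in both strains. The difference was 1.35 (SE 0.15, limma adjusted p = 3.29e-04), and 0.07 when centred on the poly-A controls. Mmp16 (MT3-MMP) read 3.42, 3.39 and 3.84 in TDECC and 8.61, 8.70 and 8.58 in TDESM. Its groups were far apart, with a difference of 5.08 (SE 0.15, limma adjusted p = 6.76e-07).

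Mmp15 (MT2-MMP) went the other way, with 8.12, 8.93 and 9.83 in TDECC and 5.46, 5.74 and 5.48 in TDESM. The TDECC arrays differed from each other by up to 1.71 and still all lay above TDESM; the difference was -3.40 (SE 0.40, limma adjusted p = 4.72e-04). Mmp24 (MT5-MMP) read 10.78, 9.66 and 9.08 in TDECC and 8.23, 8.17 and 8.34 in TDESM, a difference of -1.59 (limma adjusted p = 0.0156). Without TDESM replicates 1, 2 and 3 the sizes were -1.58, -1.55 and -1.64, but the threshold was missed (adjusted p = 0.0530, 0.0592 and 0.0526), as it was with the mean of its 3 probe sets (-1.39). Mmp17 (MT4-MMP, tethered by a lipid anchor) overlapped between strains at -0.11, with an interval of -0.50 to 0.28.

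The gelatinases, which cut denatured collagen and type IV collagen, were Mmp2 and Mmp9. Mmp2 read 4.35, 4.67 and 4.67 in TDECC and 9.28, 9.33 and 9.31 in TDESM, so that every TDESM array exceeded every TDECC array and the TDESM arrays agreed closely. The difference was 4.74 (SE 0.13, limma adjusted p = 4.80e-07), and 2.43 when its probe sets were averaged, because its other probe set read 4.52 ± 0.15 in TDESM and 4.40 ± 0.09 in TDECC (SD, n = 3). Mmp9 stood at 3.74, 3.83 and 3.91 in TDECC and 4.08, 3.83 and 4.08 in TDESM. Its arrays overlapped at a dim level by both of its probe sets, with a difference of 0.17 (95% interval -0.13 to 0.47, limma adjusted p = 0.337).

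The MMPs of the chromosome 8 run (collagenases Mmp8 and Mmp13, stromelysins Mmp3 and Mmp10, matrilysin Mmp7 and macrophage elastase Mmp12) gave 0 calls among 6 genes by limma, with 1 gene at an unadjusted p under 0.05, Mmp7. All 6 were in the dimmest 33.3% of genes by mean level. Mmp8, Mmp10 and Mmp12 stood between 3.03 and 4.30 on every array, with groups that overlapped. The other 3 had high values on single TDECC arrays. Mmp13 read 4.42, 9.42 and 5.53 on TDECC replicates 1, 2 and 3, and 3.79, 3.91 and 3.68 on TDESM arrays. Replicate 2 of TDECC thus stood 5.00 above replicate 1, and the difference of -2.66 had an interval of -5.42 to 0.09 (limma adjusted p = 0.110). It passed without TDECC replicate 2 (-1.18, adjusted p = 0.0292) and without TDECC replicate 1 (-3.68, adjusted p = 0.0289), so its size rests on 1 array.

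Mmp3 read 3.49, 4.57 and 3.54 in TDECC, again highest on replicate 2, and 3.33, 3.19 and 3.34 in TDESM (-0.58, limma adjusted p = 0.157, and -0.23 without TDECC replicate 2). Mmp7 read 4.60, 4.47 and 6.34 in TDECC, highest on replicate 3, and 3.95 on each TDESM array (-1.19, limma adjusted p = 0.0845). Its call appeared without TDECC replicate 2 (-1.52, adjusted p = 0.0467) or without TDECC replicate 3 (-0.58, adjusted p = 0.00842). The groups of Mmp3, Mmp7 and Mmp13 did not overlap, with TDECC above TDESM on every array. Over all genes, 53.6% had groups that did not overlap in either direction. Centred on housekeeping genes, these 3 passed as lower in TDESM (limma adjusted p = 0.0427, 0.0266 and 0.0469). That centring moved the median of all genes to -0.33 and called 33.2% of all genes lower.

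All 4 remaining MMPs were higher in TDESM as deposited. Mmp19, which cuts basement membrane proteins, read 4.43, 3.76 and 3.60 in TDECC and 5.93, 6.10 and 6.27 in TDESM, without overlap; the difference was 2.17 (SE 0.23, limma adjusted p = 3.14e-04). Mmp11 (stromelysin 3) differed by 1.24, Mmp23 by 1.86 and Mmp28 (epilysin) by 1.09, with limma adjusted p of 0.00974, 3.04e-05 and 5.07e-04. Mmp11 and Mmp28 turned to -0.03 and -0.18 when centred on the poly-A controls, where Mmp23 kept its sign at 0.59 but lost its call. Mmp23 was read by 3 probe sets that differed by 3.80, 1.86 and 0.20, the first of them shared with other transcripts by its name.

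Among ADAMs known to act as proteases outside the reproductive tract, 4 of 7 were lower in TDESM and 2 were higher. Adam8, which sheds surface proteins and is known from leukocytes and tumour cells, read 9.85, 10.16 and 8.58 in TDECC and 4.92, 4.69 and 4.78 in TDESM. The strains were far apart at -4.73 (SE 0.39, limma adjusted p = 8.02e-05), and -2.23 when its probe sets were averaged, since the other probe set overlapped between strains at 0.27. Of the 6 leukocyte markers 5, Ptprc among them, were in the dimmest 33.3% of genes, while Cd14 read 8.65, 10.88 and 11.64 in TDECC and 8.63, 8.67 and 8.90 in TDESM. The part of leukocyte RNA in the Adam8 value was not tested.

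Adam9, Adam10 and Adam15 were also lower in TDESM. Adam9 read 6.20, 7.19 and 7.54 in TDECC and 5.38, 5.64 and 5.19 in TDESM (-1.57, SE 0.34, limma adjusted p = 0.00835). Adam15 read 8.33, 8.59 and 7.83 in TDECC and 6.60, 6.57 and 6.73 in TDESM (-1.62, SE 0.20, limma adjusted p = 6.71e-04). For both, every TDECC array was above every TDESM array. Adam10, the main sheddase of Notch receptors and cadherins, read 6.95, 6.96 and 7.89 in TDECC and 6.44, 6.35 and 6.14 in TDESM. The difference was -0.96 (limma adjusted p = 0.0252). Its size was -1.02, -0.98 and -0.87 without TDESM replicates 1, 2 and 3, but the threshold was then missed (adjusted p = 0.0594, 0.0753 and 0.0945).

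Adam17, the sheddase of TNF and of EGF receptor ligands, did not separate the strains. It read 9.54, 9.46 and 9.93 in TDECC and 9.62, 9.55 and 9.34 in TDESM, with a difference of -0.14 and an interval of -0.53 to 0.25, which leaves out a log2 difference of 1 either way. Centred on the poly-A controls it gave -1.41, near the shift of the median gene. Adam19, known from the developing heart and from fibrosis, was higher in TDESM, with 8.69, 9.59 and 8.33 in TDECC and 11.38, 11.56 and 11.38 in TDESM (2.57, SE 0.31, limma adjusted p = 5.30e-04). All TDESM arrays exceeded all TDECC arrays, and 3 of its 4 probe sets passed. Adam33, a gene of mesenchymal cells, differed by 1.66 (limma adjusted p = 0.00114), from 5.22 ± 0.47 to 6.88 ± 0.03 (SD, n = 3).

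Of 3 ADAMs that lack protease activity and act as adhesion proteins, mostly of neurons, Adam23 was higher in TDESM and Adam11 and Adam22 were not called. Adam23 differed by 1.26 (limma adjusted p = 4.34e-04), and all 3 of its probe sets passed, with differences of 0.69, 1.26 and 3.28. Of 8 ADAMs known mainly from testis and epididymis, 6 were in the dimmest 33.3% and 2 were called, Adam4 (-1.75, limma adjusted p = 7.48e-05) and Adam32 (-1.40, limma adjusted p = 0.00833), both lower in TDESM. Adam32 lies next to Adam9 in the RefSeq order, with 0 protein-coding genes between them, and the values of both genes were lower in TDESM. Adam3a (0.56) and Adam18 (0.15), farther along the same run, were not called and differed the other way. Adam3a passed without TDECC replicate 1 (0.65, adjusted p = 0.0495) or replicate 3 (0.67, adjusted p = 0.0467) but not with all arrays (0.56, limma adjusted p = 0.0568).

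**Figure D3:**
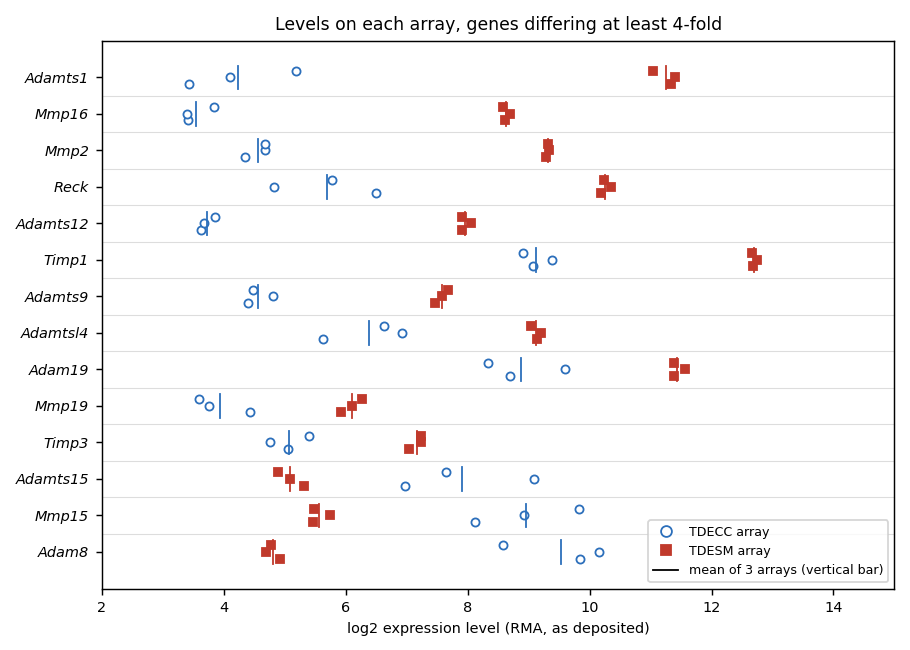
Log2 level (horizontal axis) on each of the 3 TDECC arrays (open circles) and 3 TDESM arrays (filled squares) for the 14 called genes that differed at least 4-fold, with vertical bars for the means. In every gene shown the groups do not overlap, and the TDESM arrays lie closer together than the TDECC arrays; the closest case is Adamts12, with ranges of 0.23 in TDECC and 0.15 in TDESM.

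The ADAMTS proteoglycanases, which cut versican and aggrecan, gave 4 higher and 1 lower gene of 6. Adamts1 had the largest difference of the set. It read 3.43, 4.11 and 5.18 in TDECC and 11.33, 11.40 and 11.04 in TDESM, so dim on every TDECC array and bright on every TDESM array. Every TDECC value lay below 5.85, the upper bound of the dimmest 33.3% of genes, so its fold has no well-measured size. The log2 difference was 7.02 (SE 0.41, limma adjusted p = 1.39e-05) and ranged from 6.61 to 7.49 when each array was left out. Its neighbour in the RefSeq order, Adamts5, with 0 genes between them, was higher by 1.42 (limma adjusted p = 0.00549) from a low level, 4.03 ± 0.56 against 5.45 ± 0.18 (SD, n = 3). The limit on the fold of Adamts1 holds for other genes differing at least 4-fold. All TDECC values of Mmp2, Mmp16, Mmp19, Adamts9, Adamts12 and Timp3 lay below the same bound. So did all TDESM values of Mmp15, Adam8 and Adamts15.

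Adamts9 read 4.40, 4.80 and 4.48 in TDECC and 7.47, 7.58 and 7.68 in TDESM (3.02, SE 0.15, limma adjusted p = 5.66e-06) and 1.69 when its probe sets were averaged. Adamts4 (aggrecanase 1) differed by 1.95 (limma adjusted p = 3.63e-04). Adamts15 was the exception, with 6.98, 9.09 and 7.64 in TDECC and 5.31, 5.08 and 4.89 in TDESM. Its groups did not overlap and replicate 2 was again the highest TDECC array; the difference was -2.81 (SE 0.49, limma adjusted p = 0.00338). Its neighbour Adamts8, with 0 genes between them, was dim in both strains and not called (-0.21, interval -0.52 to 0.10).

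Of the 6 other ADAMTS genes, 3 were higher and 0 lower in TDESM. Adamts12, which cuts cartilage oligomeric matrix protein, read 3.63, 3.67 and 3.86 in TDECC and 7.91, 8.05 and 7.90 in TDESM. The strains were well separated, at 4.23 (SE 0.12, limma adjusted p = 5.81e-07). Its relative Adamts7 differed by 0.88 (limma adjusted p = 0.0175), a call lost without TDECC replicate 3 (adjusted p = 0.0506) or TDESM replicate 1, 2 or 3 (0.0579, 0.0634 and 0.0602). Adamts6 differed by 0.52 (limma adjusted p = 0.0336), and missed the threshold in 5 of the 6 leave-one-out fits, with adjusted p of 0.0806 and 0.0711 without TDECC replicates 2 and 3 and of 0.126, 0.0969 and 0.0511 without TDESM replicates 1, 2 and 3. Adamts10, which binds fibrillin, was not called by its brightest probe set (0.24), but its other probe set differed by 1.47 and their mean by 0.85 (adjusted p = 0.00134). Adamts16 and Adamts19 were dim in both strains.

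ADAMTSL proteins resemble ADAMTS enzymes without the protease domain and sit in the matrix near fibrillin. Adamtsl4 read 5.63, 6.92 and 6.62 in TDECC and 9.13, 9.20 and 9.04 in TDESM, without overlap (2.73, SE 0.32, limma adjusted p = 4.59e-04). Adamtsl1, Adamtsl2 and Adamtsl5 were not called. Adamtsl5 read 8.22, 7.83 and 6.84 in TDECC and 8.29, 8.48 and 8.48 in TDESM, and passed only without TDECC replicate 1 (1.08, adjusted p = 0.0239) among the 6 leave-one-out fits. Without TDECC replicate 3 its difference was 0.39.

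The inhibitors were higher in TDESM in 4 of 5 cases, and 0 were lower, beside 22.1% and 20.6% of all genes. Timp1 read 9.07, 9.38 and 8.90 in TDECC and 12.68, 12.74 and 12.66 in TDESM. TDECC was thus well above the dim range too, and the difference was 3.58 (SE 0.15, limma adjusted p = 2.62e-06), or 11.9-fold. Timp3, which binds to the matrix and also inhibits Adam17 and aggrecanases, read 5.06, 4.75 and 5.40 in TDECC and 7.04, 7.24 and 7.24 in TDESM (2.10, SE 0.18, limma adjusted p = 1.14e-04). Its 4 probe sets differed by 0.22 to 3.17, and 3 passed. Reck read 6.50, 4.83 and 5.77 in TDECC and 10.19, 10.35 and 10.23 in TDESM, the groups far apart (4.56, SE 0.38, limma adjusted p = 9.49e-05).

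Timp2, which inhibits MMPs and also takes part in the activation of Mmp2 by Mmp14, was bright in both strains, with 12.69, 12.60 and 11.75 in TDECC and 13.33, 13.45 and 13.40 in TDESM. TDECC replicate 3 was the lowest array. The difference of 1.05 (SE 0.25, limma adjusted p = 0.0137) missed the threshold when TDESM replicate 2 (adjusted p = 0.0553) or 3 (0.0525) was dropped and turned to -0.23 when centred on the poly-A controls. The other probe set of Timp2 differed by 0.44 and did not pass (limma adjusted p = 0.073). The mean of both differed by 0.74 (limma adjusted p = 0.00224). Timp4 was dim and not called (0.26, interval -0.26 to 0.78). Bsg, the MMP inducer, was bright in both strains, with 11.84, 12.51 and 11.57 in TDECC and 11.47, 11.55 and 11.71 in TDESM. Its groups overlapped, and the difference of -0.40 did not pass (interval -0.97 to 0.18, limma adjusted p = 0.242). It was -0.13 without TDECC replicate 2 and -0.60 without TDECC replicate 3.

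Of the 26 genes not called 20 were in the dimmest 33.3% of genes, as were 8 of the 31 called genes. Detection calls were not used here, and a dim level does not show that a transcript was absent. The 6 uncalled genes above that range were Mmp17, Adam1a, Adam17, Adamts10, Adamtsl5 and Bsg.

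Probe sets of a gene often disagreed in size. Of the 16 genes with more than 1 probe set, 3 had every probe set called in the same direction (Mmp14, Adam23 and Adamts5), 3 had none called (Mmp9, Adam22 and Adamtsl5) and 10 had some called, while 0 had calls in opposite directions. At the level of probe sets, 42 of 81 passed, 51.9% against 36.9% of all probe sets, with 32 higher (39.5% against 17.9%) and 10 lower (12.3% against 19.0%). Averaging the probe sets changed the log2 difference itself by a factor above 1.5 in Mmp2 (4.74 to 2.43), Adam8 (-4.73 to -2.23), Adamts9 (3.02 to 1.69) and Adamts10 (0.24 to 0.85).

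**Figure D4:**
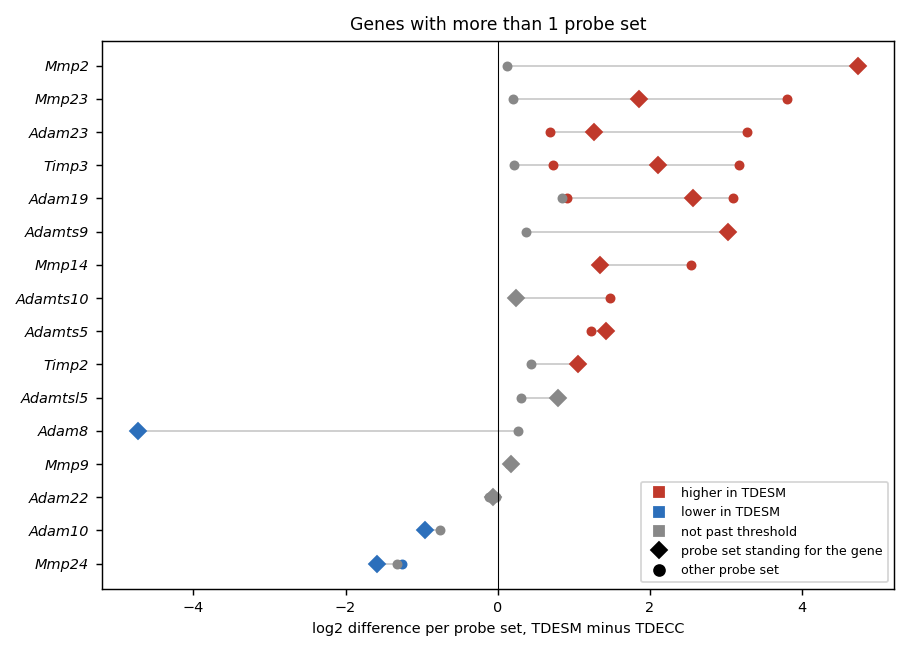
Log2 difference (TDESM minus TDECC, horizontal axis) of each of the 40 probe sets of the 16 genes that have more than 1, with diamonds for the probe set standing for the gene and colours for the limma call. Mmp2 spans 0.12 to 4.74 and Adam8 -4.73 to 0.27, while the 3 probe sets of Mmp24 lie between -1.59 and -1.26.

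TDECC arrays varied more than TDESM arrays. The standard deviation over 3 arrays was larger in TDECC for 46 of 57 genes (80.7%), beside 77.3% of all genes, with medians of 0.25 in TDECC and 0.12 in TDESM, beside 0.24 and 0.12 over all genes. It exceeded 0.5 in TDECC for 17 genes of the set, 29.8% against 15.2% of all genes, and in TDESM for 0 genes, against 0.288%. The range over TDECC arrays was at least 1 for 13 genes, 22.8% against 13.8% of all genes, and in TDESM for 0, where the widest was 0.77. The highest TDECC array was replicate 2 for 6 of the 13 (Mmp13, Mmp3, Adamts15, Adam8, Adamtsl4 and Adam19), replicate 3 for 4 (Mmp7, Mmp15, Adamts1 and Adam9) and replicate 1 for 3 (Mmp24, Reck and Adamtsl5). Which array was highest therefore differed between genes. Cd14, a leukocyte marker, read 8.65, 10.88 and 11.64 on TDECC replicates 1, 2 and 3, and its part in these values was not tested.

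**Figure D5:**
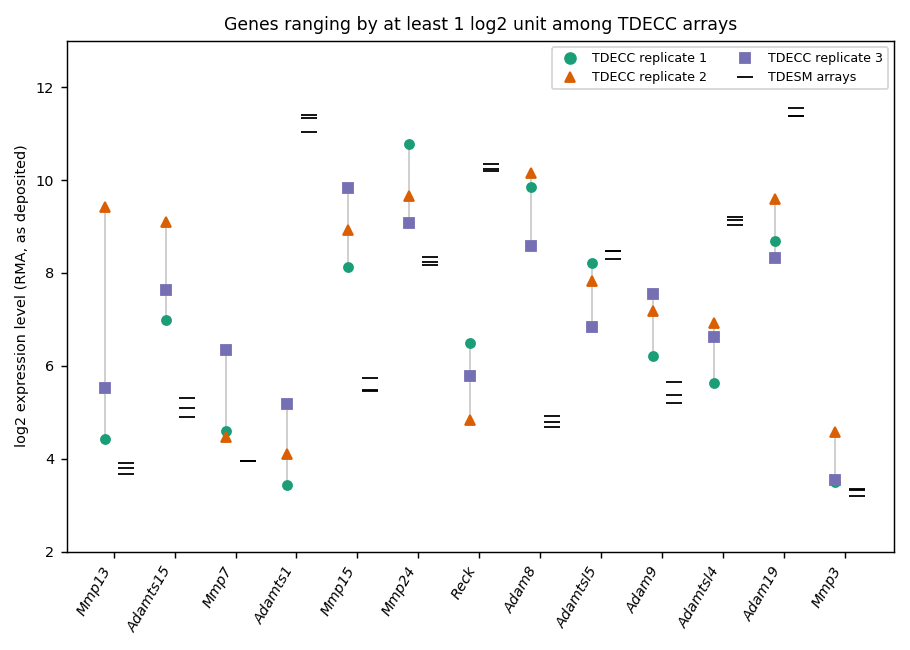
Log2 level (vertical axis) of the 13 genes whose range over the 3 TDECC arrays was at least 1, with a symbol for each TDECC replicate and black dashes for the 3 TDESM arrays. Mmp13 spans 5.00 on TDECC arrays, and TDESM arrays span at most 0.45 in any gene shown.

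Genes that act with these enzymes were counted from lists chosen for their known roles, with earlier results of these data known. The shares below were not tested. Of 17 measured activators, inhibitors and clearance receptors, 3 were higher in TDESM (17.6%, against 22.1% of all genes) and 6 were lower (35.3%, against 20.6%), and the median difference was -0.09. Serpine2, a serine protease inhibitor, differed by 7.44 and Pcsk6, a proprotein convertase, by 4.20 (limma adjusted p = 1.50e-07 and 1.50e-04). Plau, urokinase, which makes plasmin, an activator of MMP precursors, differed by -7.73, and its inhibitor Serpinb2 by -6.64 (limma adjusted p = 2.94e-05 and 4.41e-06).

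Of 8 partners of Adam10 and Adam17, 2 were higher in TDESM and 5 lower, or 25% and 62.5% beside 22.1% and 20.6% of all genes (median -1.17). Tspan5 and Tspan17, tetraspanins that guide Adam10, differed by 3.03 and 2.13 (limma adjusted p = 2.52e-04 and 2.66e-05). Rhbdf2 (iRhom2), which carries Adam17 to the cell surface, differed by -2.30 (limma adjusted p = 7.29e-06), from 8.98 ± 0.11 to 6.67 ± 0.07 (SD, n = 3), although Adam17 itself did not pass. Tspan33 differed by -1.65 (limma adjusted p = 0.0137), which missed the threshold when TDESM replicate 2 (adjusted p = 0.0501) or 3 (0.0528) was dropped and when its probe sets were averaged (-0.64, adjusted p = 0.0701).

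Of 17 known substrates of Adam10 and Adam17, 1 was higher in TDESM and 8 were lower, or 5.88% and 47.1% beside 22.1% and 20.6% of all genes (median -0.80). The largest differences were those of Cdh1, E-cadherin (-9.29), and Cx3cl1, a membrane-bound chemokine (-5.80), with limma adjusted p of 1.72e-07 and 0.00211, and Cdh1 gave -4.79 with the mean of its probe sets. Cdh1 is also among the epithelial markers used above to check the labels. Cd44, a hyaluronan receptor, differed by 1.15 (limma adjusted p = 0.0141), which missed the threshold when TDESM replicate 2 (adjusted p = 0.0555) or 3 (0.0560) was dropped, and its sign turned to -0.12 when centred on the poly-A controls.

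Of 16 substrates of ADAMTS enzymes and genes of procollagen processing, 11 were higher in TDESM and 0 lower, or 68.8% and 0% beside 22.1% and 20.6% of all genes (median 5.45). They were led by Col1a2 (10.72) and Col1a1 (9.08), the chains of type I collagen (limma adjusted p = 2.44e-07 and 4.13e-07). Some proteoglycans cut by ADAMTS enzymes were among them: Vcan, versican, differed by 5.76 and Acan, aggrecan, by 5.63 (limma adjusted p = 9.53e-07 and 2.07e-07). These 2 were named after their values were seen. The proteoglycans Bcan, brevican, and Ncan, neurocan, of the same list were dim and not called (0.06 and 0.05, limma adjusted p = 0.824 and 0.825). Col1a1, Col1a2 and Col3a1 of the same list are also among the fibroblast markers used above to check the labels. Of 15 basement membrane and adhesive matrix genes cut by MMPs, 8 were higher and 2 lower, or 53.3% and 13.3% beside the same shares of all genes (median 1.24). Nid1, nidogen, and Fn1, fibronectin, each differed by 9.67, and the epithelial laminin chains Lamb3 and Lama5 by -6.54 and -2.71, with limma adjusted p between 9.79e-08 and 2.99e-04. Nid1 gave 4.91 with the mean of its probe sets.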

How the data were processed

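RNA of 3 TDECC and 3 TDESM samples was measured on rat Affymetrix arrays, with groups and replicate numbers taken from sample titles. The deposited values are log2 values that the authors made with RMA, per the submitters' processing notes (no version stated in these sources). RMA commonly equalises the arrays' distributions, which removes differences in total mRNA; array medians were 5.80 to 5.86. The number of arrays limits the precision.

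Of 31099 probe sets 57 were controls, 20826 named 1 symbol, 436 several, and 9780 others were not listed. Each gene was represented by 1 probe set, that of highest mean level across the 6 arrays, with no filter on dim genes. All 57 symbols were found in the RefSeq table. Strains were compared with limma 3.58.1 in R 4.3.3 (lmFit and eBayes, two-sided, Benjamini-Hochberg over 14217 genes, threshold 0.05), checked on simulated data. Intervals cover 95%. Values on every array are given for called genes with a log2 difference of at least 2 and for fixed well-known members, and from each list up to 2 genes each way. Members and lists were chosen with earlier results of these data known. Alternatives were cyclic loess, centring on 8 housekeeping genes or 24 poly-A control probe sets, dropping genes in the dimmest 33.3%, averaging probe sets, testing probe sets singly, trended robust eBayes, the replicate block, leaving out each array, and a minimum log2 difference of 1. A planned search for protein motifs was not run. Deviations of same-numbered arrays correlated at -0.07, 0.02 and -0.14, and those of other pairs of the 2 strains at -0.14 to 0.15. These values cannot tell whether same-numbered arrays were handled together, and the labels do not say.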

Additional observations from a re-analysis of the deposited data

How the results depend on the processing

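The count of 31 called genes of the set (22 higher, 9 lower) was 26 to 34 (19 to 24 higher, 7 to 11 lower) when each array was left out, and over all genes the count of 6065 was 4605 to 6437. No called gene of the set changed sign under any alternative but the poly-A centring, where 6 did. With a minimum log2 difference of 1, 17 genes of the set passed and 1948 of all genes, with 13 higher (22.8%, against 7.50%) and 4 lower (7.02%, against 6.20%), and the counts fell to 3 for Adam10 and Adam17 partners and 3 for their substrates. Centred on housekeeping genes, 21 genes of the set were higher (36.8%, against 14.8% of all genes) and 15 lower (26.3%, against 33.2%), and Mmp9, not called, turned to -0.16. Centred on the poly-A controls, 12187 of all genes passed, with 11 genes of the set higher and 35 lower, 15 of the activator list and 16 of the Adam10 and Adam17 substrates called, and signs turned for Mmp9 (-1.10), Timp2 (-0.23) and Cd44 (-0.12). Counts under this centring do not follow the spread of single genes, as said above. Without TDECC replicate 3 the uncalled difference of Adam17 was 0.00. With the replicate block the set again gave 22 higher and 9 lower genes, the same 31 genes, and all genes gave 5342. Cyclic loess gave 23 higher and 9 lower in the set, beside 3359 and 2911 of 14217 genes. Trended robust eBayes gave the same counts in the set, beside 3136 and 2921 of all genes. The mean of all probe sets gave 23 and 8, beside 3155 and 2913. Dropping the dimmest genes left 29 genes of the set, with 15 higher and 8 lower, beside 2646 and 2623 of 9477 genes. That setting left out 8 called genes of the set and changed no other call. The cause of these moves was not tested, except that a minimum difference removes small ones by construction. Dim probe sets near background limit how far a difference can be read.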
